A study of Mus musculus with 25 samples.

Results

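The libraries described here are 4 basal cell carcinomas of mice that the labels call resistant and 3 libraries of ASZ001, a cultured mouse line of this cancer, treated with vehicle. They were chosen by their labels alone and are 7 of the 17 RNA libraries, and of 25 samples in all. The tumours grew in C57BL6 mice that were Ptch+/-, carried K14 Cre-ER and were p53 fl/fl, and the animals received a Smo inhibitor by oral gavage. K14 Cre-ER is an inducible Cre recombinase under the keratin 14 promoter, so floxed p53 can be removed in cells that use this promoter and not in the other cells of a tumour. The ASZ001 cells are labelled as resistant too, yet these libraries had vehicle in place of an inhibitor. The labels do not give the inhibitor's name or dose, the age of the mice or the genotype of the line. Nor do they say whether libraries came from separate animals or cultures, so that p-values speak only of the spread among these libraries, which may be technical. The other libraries are 4 sensitive tumours of the same genotype and ASZ001 cells given vismodegib or CCG-1423, with 3 libraries each.

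Basal cell carcinoma arises from keratinocytes of the epidermis and hair follicle in which the Hedgehog pathway is switched on. Ptch1, the receptor of Hedgehog ligands, holds back Smo, and once this brake is lost Smo frees the Gli transcription factors, which raise Gli1, Ptch1 and Hhip. Smo inhibitors are used against this cancer, and tumours that keep growing under them are called resistant. The series title names a link from the cytoskeleton to Hedgehog through SRF, a transcription factor, and its actin-regulated coactivators MRTF, encoded by Mkl1 and Mkl2. The comparison sets the cultured line beside tumours that carry the same label, resistant.

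The libraries held 17537094 to 20014426 reads at genes in tumours and 32192090 to 44017757 in cells. Levels are reads per 1000000 gene reads of a library (RPM), leaving out Rn45s, Lars2 and Mir6236, of which Rn45s, a ribosomal RNA precursor, took 3.24% to 5.80% of tumour reads and 5.81% to 6.70% of cell reads. The deposited table, tissue or culture, drug or vehicle, and group coincide here, so these cannot be told apart. Pairs of libraries were compared over genes with enough reads in the pair, 12918 to 13089 in cells and 16213 to 16450 in tumours. Counting noise gives a chi-square of about 1 per degree of freedom. The vehicle libraries lay near it: pairs of them had 1.73 to 2.63, and pairs of tumours 50.8 to 88.2. Of the libraries used for reference, sensitive tumour 4 lay with the resistant ones, with a rank correlation of 0.957 to 0.970 across genes, while sensitive tumours 1 to 3 had 0.862 to 0.888. Trp53, the floxed gene, had 25.4, 33.3, 28.5 and 51.8 RPM in resistant tumours 1 to 4 and 163, 159 and 149.9 in the vehicle libraries. Trp53 was thus lower in every tumour, with a log2 difference of -2.22 ± 0.22 (SE) and an adjusted p of 0.00109 by limma, a call that scaling to pan-epithelial genes ended. Reads per gene do not show whether an exon was lost.

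Tumours and cells differed beyond 2-fold in 6545 of 14531 genes tested, by limma's test against a 2-fold difference with Benjamini-Hochberg adjustment at 0.05, on log2(RPM + 0.5). Only such genes are said to be called, higher or lower, and adjusted p-values are from this test. Genes were tested where at least 3 libraries had 1 RPM or more. A gene almost unread in the cells passes this only through the tumours, and so could be called higher or not at all. For lists of such genes, counts of calls are not a test. Of the 6545 genes 4576 were higher in the tumours, 31.5% of the genes tested, and 1969 were lower, 13.6%. Counts of list members are read against these shares. In all 6545 called genes the groups did not overlap in RPM, so for a called gene the lack of overlap adds nothing. The split rests on the scale: 69.9% of the calls were higher as measured, 45.4% after quantile normalization, 95.2% with libraries scaled to the geometric mean of 30 pan-epithelial genes and 34.3% in the deposited values, each table with its own size factors. The median log2 difference of all tested genes was 0.38, and 0.16 with TMM scaling, -0.12 with quantile normalization, 1.63 with pan-epithelial scaling and -0.88 in the deposited values. Differences below are therefore read against 0.38, and 1566 genes were called higher and 364 lower under all these scales, and with Rn45s, Lars2 and Mir6236 kept in the total. Where a scaling is said below to end a call, the direction was kept. In all, 670 genes had at least 1 RPM in every tumour and 0 reads in every vehicle library, against 13 genes the other way round.

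The genes furthest above the cells were an RNA of the inactive X chromosome, a growth factor with its neighbouring RNA, and genes of connective tissue. Xist had 5591, 4503, 4605 and 5545 RPM in resistant tumours 1 to 4 and 1 read over the 3 vehicle libraries, a ratio of 518692-fold (95% counting interval 93095 to 20487242). Without strand its reads cannot be told from those of the antisense Tsix. No read of the Y-linked genes Kdm5d, Ddx3y, Eif2s3y and Uty was counted in either group. Igf2, an insulin-like growth factor, had 3991, 3794, 2897 and 5035 in the tumours and 5 reads in all over the vehicle libraries. H19, the maternally expressed RNA beside Igf2, had 3462, 974, 2668 and 3715 in the tumours and 3 reads over the vehicle libraries, a ratio of 92406-fold (95% counting interval 31620 to 448087). The tumours were thus high throughout, with tumour 2 lowest for H19. Among the others Col1a1, Bgn, Col3a1, Fndc1 and Col1a2, of collagens and other matrix proteins, had log2 differences of 11.91, 11.52, 10.97, 10.79 and 10.55 in that order. Fbn1, fibrillin, had 1242, 1153, 1290 and 1282 in the tumours and 2 reads over the vehicle libraries, and Lyz2, the lysozyme of macrophages and neutrophils, had 0 reads there.

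The genes furthest below the cells were still read in the tumours, at a small part of their level in the cells. Spon2, a secreted matrix protein, had 0.0607, 2.24, 1.58 and 0.310 RPM in resistant tumours 1 to 4 and 359, 360.3 and 366 in the vehicle libraries, a log2 difference of -8.16 ± 0.52 (SE). Tchh, trichohyalin of the inner root sheath, had 12.8, 7.15, 16.5 and 4.04 in the tumours and 1372, 1506 and 1565 in the cells, and Tubb3, a tubulin best known from neurons, had 1.40, 1.09, 0.409 and 0.0517 against 118, 115 and 123 in cells. For these genes the tumours varied among themselves while the cell libraries lay close together, and no tumour reached the cells. Pgbd5, a gene derived from a transposase, Dact2, a regulator of Wnt signalling, Aqp3, a water and glycerol channel, and Sox6, a transcription factor, had log2 differences of -7.09, -7.07, -6.72 and -6.65. Rpl39l, a copy of a ribosomal protein gene, Gsta3, a glutathione transferase, and Fam189a2 completed the 10, at -6.41, -6.40 and -6.38. Rpl39l resembles Rpl39 closely, so its reads are uncertain.

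Gli1 and Ptch1, which Hedgehog signalling turns on, were higher in the resistant tumours than in the line. Gli1, the factor and target most used as a readout of the pathway, had 146, 107, 261 and 180.0 RPM in resistant tumours 1 to 4 and 36.2, 38.8 and 32.6 in the vehicle libraries, on average at percentile 94.1 and 76.8 of all genes ranked by reads, with no adjustment for gene length. The groups did not overlap, as in every called gene, and the log2 difference was 2.19 ± 0.27 (SE), adjusted p = 0.00325 by limma. Ptch1 had 236, 86.0, 189 and 235 in the tumours and 9.60, 9.10 and 9.83 in the cells, a log2 difference of 4.12 ± 0.33 (SE), adjusted p = 4.72e-05. Ptch1 was lowest in tumour 2, still above every cell library.

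Hhip and Mycn had almost no reads in the cells. Hhip, a target that binds Hedgehog ligands, had 57.5, 104, 126 and 94.8 RPM in the tumours and 0 reads in each vehicle library, at least 949-fold higher against 3 reads in the shallowest of them. Mycn, a target that drives growth, had 35.6, 21.7, 74.7 and 59.9 in the tumours and 3 reads in all in the cells, a ratio of 1639-fold (95% counting interval 561 to 7948). A count of 0 allows up to 0.101 RPM in the shallowest vehicle library, and such bounds cover counting error only. Ccnd1, cyclin D1, had 512, 408, 1125 and 947 in the tumours and 54.6, 50.1 and 50.2 in the cells, a log2 difference of 3.72 ± 0.34 (SE).

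**Figure D1:**
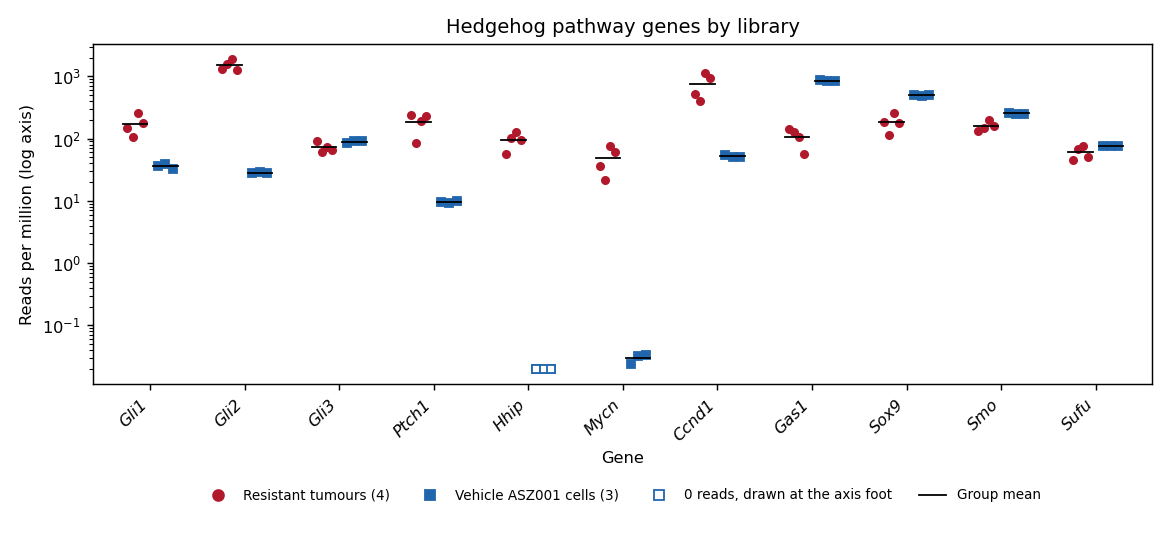
RPM (log axis) of 11 Hedgehog pathway genes, with 1 point per library, 4 resistant tumours and 3 vehicle libraries, and a bar at each group mean. Hhip is at 0 reads in the cells, Gli2, Mycn and Ptch1 lie far higher in the tumours, and Gas1 and Sox9 lie higher in the cells, though Sox9 was not called. Gli3, Smo and Sufu, lower here, turn higher with pan-epithelial scaling.

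Other Hedgehog genes differed in direction. Gli2, the main activator downstream of Smo, had 1329, 1603, 1868 and 1268 RPM in the tumours and 28.0, 29.2 and 28.4 in the cells, a log2 difference of 5.69 ± 0.14 (SE), while Gli3, which acts mostly as a repressor, had 90.0, 61.4, 72.8 and 65.0 against 85.5, 90.6 and 93.1 in cells. The log2 difference of Gli3 was -0.32 ± 0.14 (SE) and turned to 0.98 under pan-epithelial scaling, and it was not called. Smo had 133, 146, 196 and 161 in the tumours and 261, 251 and 249.9 in the cells, a log2 difference of -0.69 ± 0.13 (SE) that was not called and turned to 0.62 under pan-epithelial scaling. Sufu, which holds Gli proteins in check, was not called either, at -0.36, and 0.93 under that scaling. Gas1, a co-receptor that Hedgehog signalling turns down, went the other way, with 142, 126, 106 and 57.4 in the tumours and 863, 827 and 842 in the cells, a log2 difference of -3.04 ± 0.28 (SE). Sox9, a factor of follicle stem cells and this cancer, had 188, 112, 254 and 176 against 506, 482 and 504 in cells, and its difference of -1.503 ± 0.24 (SE) was not called. Sox9 was called lower under TMM scaling, at -1.73. Smo, Gli3, Sufu and Sox9 were called lower in the deposited values, at -1.97, -1.61, -1.65 and -2.79. Sox9 was called when resistant tumour 3 was left out, with limma's adjusted p = 0.0151.

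Of the list of Hedgehog targets, limma called 8 of 18 tested members higher and 1 lower, with a median log2 difference of 1.01 (-0.26 to 2.30 over the 5 other scalings). Among the higher genes were Gli1, Ptch1, Hhip, Mycn, Ccnd1, Igf2 and Bcl2, which protects from cell death. Of the pathway's components it called 2 of 22 tested members higher and 4 lower, with a median of -0.32 (-1.59 to 0.98 over the 5 other scalings). Gli2 and Ift88, a transport protein of the primary cilium, were the higher ones. Evc of the ciliary base, Gpr161 and Tulp3, which restrain the pathway at the cilium, and Prkaca, the kinase that primes Gli for processing, were the lower ones, with log2 differences of -1.63, -2.12, -1.84 and -1.52. Over all genes tested 31.5% were higher and 13.6% lower, and the median was 0.38. Under TMM scaling Ift88 was not called, and under quantile normalization Ift88 was not called, and under pan-epithelial scaling Evc, Gpr161, Tulp3 and Prkaca were not called, and in the deposited values Gli1 and Ift88 were not called. Ift88 was not called when vehicle library 3 was left out, with limma's adjusted p = 0.0522. Evc was not called when vehicle library 1 or 2 or 3 was left out in turn, with limma's adjusted p from 0.0588 to 0.0636.

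Both groups carried the defining genes of basal keratinocytes, and the cells had more Krt5 and Krt14. Krt5, the basal type II keratin, had 1999, 1524, 3130 and 778 RPM in resistant tumours 1 to 4 and 18155, 18769 and 18353 in the vehicle libraries. Its partner Krt14 had 946, 479.9, 809 and 464 against 13153, 13364 and 13156 in cells. The cells exceeded every tumour, with log2 differences of -3.48 ± 0.41 (SE) for Krt5 and -4.36 ± 0.27 (SE) for Krt14, adjusted p = 6.52e-04 and 9.16e-06 by limma. Trp63, the master factor of this lineage, had 555, 608, 585 and 352 in the tumours and 418, 402 and 409 in the cells, was not called at 0.33 and turned to -0.96 in the deposited values. Cdh1, E-cadherin, differed by -1.06, or 0.25 under pan-epithelial scaling, and Epcam, an adhesion molecule, by -0.45, or 0.85, and neither was called. Trp63 was called higher under pan-epithelial scaling, at 1.64. Trp63, Cdh1 and Epcam are among the 30 genes that set this scale, so it is no independent check on them. Cdh1 and Epcam were called lower in the deposited values, at -2.35 and -1.73.

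Some genes of keratinocyte adhesion were lower in the tumours and Cldn1 was higher. Col17a1, the collagen of hemidesmosomes, had 546, 744, 852 and 222 RPM in the tumours and 6325, 6467 and 6493 in the cells. Lamb3, a chain of laminin-332, had 264, 148, 125 and 71.8 against 1685, 1679 and 1663 in cells. Tumour 4 was lowest for both, and no tumour reached the cells. Dsp and Perp, parts of the desmosome, had log2 differences of -2.16 and -2.27. Cldn1, a claudin of tight junctions, had a log2 difference of 3.27. Of the pan-epithelial list limma called 2 of 30 tested members higher and 12 lower, with a median of -1.08 (-2.37 to 0.22 over the 5 other scalings), and of the basal keratinocyte list 7 of 16 tested members lower, with a median of -0.74 (-2.03 to 0.57 over the 5 other scalings). Some genes stand in both lists. Among all genes tested 31.5% were higher and 13.6% lower. Under pan-epithelial scaling Dsp and Perp were not called. The 30 genes of the pan-epithelial list set that scale, so it is no independent check on its members, Dsp, Perp, Col17a1 and Lamb3 included.

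**Figure D2:**
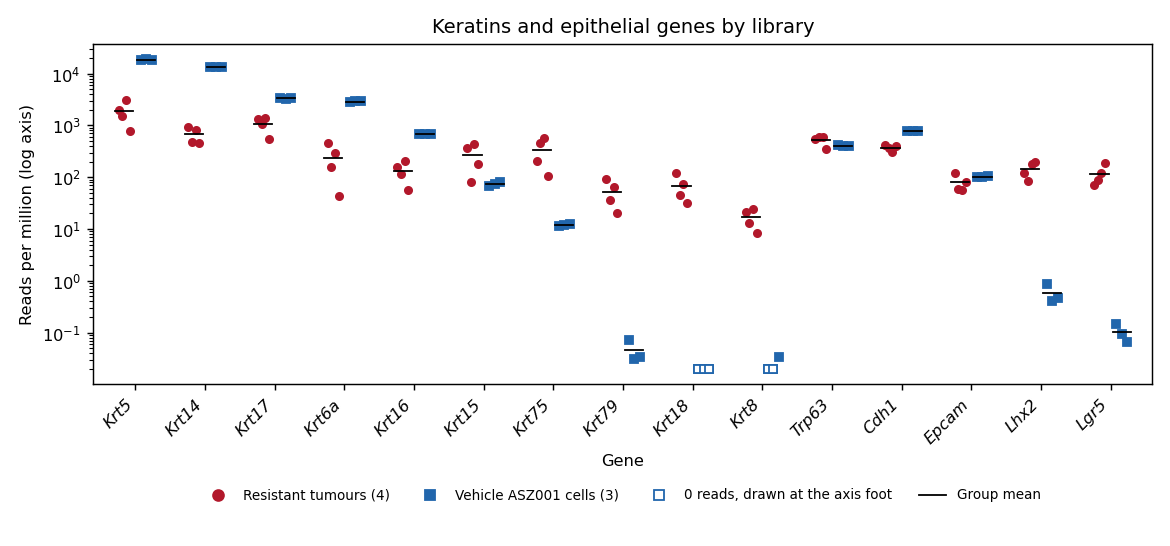
RPM (log axis) of 10 keratins and 5 other epithelial genes, with 1 point per library, 4 resistant tumours and 3 vehicle libraries, and a bar at each group mean. Krt5, Krt14, Krt6a and Krt16 lie higher in the cells, whereas Krt75, Krt79, Krt18, Krt8, Lhx2 and Lgr5 lie higher in the tumours.

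Keratins differed in direction. Krt6a, Krt16 and Krt17, keratins of wounded and hyperproliferative epidermis, were lower in the tumours, with 450.4, 155, 296 and 43.1 RPM of Krt6a against 2796, 2911 and 2933 in the cells and log2 differences of -4.05, -2.49 and -1.73. Krt6a was lowest in tumour 4, and it is near-identical to Krt6b, so the authors' counting may have split their reads. Krt18 and Krt8, the pair of simple epithelia, went the other way: Krt18 had 119, 46.3, 73.6 and 31.6 in the tumours and 0 reads in the cells, at least 671-fold higher, and Krt8 had 21.6, 12.9, 24.9 and 8.48 against 1 read over the vehicle libraries. Krt79, a keratin of the upper follicle and sebaceous duct, had 90.8, 35.7, 64.4 and 20.4 in the tumours and 5 reads in all in the cells. Krt75, of the companion layer of the follicle, had 202, 449, 567 and 108 against 11.7, 11.7 and 12.6 in cells, a log2 difference of 4.46 ± 0.52 (SE). Krt15, a marker of bulge stem cells, had 359, 82.0, 432 and 180.1 in the tumours and 69.2, 72.7 and 80.3 in the cells and was not called at 1.56 ± 0.51 (SE), and Krt10 of differentiating epidermis was not called at -1.33 ± 0.21 (SE). Under quantile normalization Krt17 was not called, and under pan-epithelial scaling Krt16 and Krt17 were not called, and with keeping Rn45s, Lars2 and Mir6236 in the total Krt17 was not called. Krt10 was called lower under TMM scaling, at -1.54. Krt10 was called lower under quantile normalization, at -2.35. Krt15 was called higher under pan-epithelial scaling, at 2.86. Krt10 was called lower in the deposited values, at -2.55. Krt17 was not called when any single library other than resistant tumour 1, resistant tumour 3 and resistant tumour 4 was left out in turn, with limma's adjusted p from 0.0780 to 0.107. Krt15 was called when resistant tumour 2 was left out, with limma's adjusted p = 0.0165. Krt10 was called when resistant tumour 3 was left out, with limma's adjusted p = 0.0477.

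Factors of the hair follicle split as well. Lhx2, needed to keep follicle stem cells, had 119, 85.3, 177 and 193 RPM in the tumours and 0.875, 0.412 and 0.470 in the cells, and Lgr5, a stem cell receptor of the Wnt pathway, had 70.8, 88.8, 122 and 187 against 0.146, 0.0951 and 0.0671 in cells. Lrig1, a growth factor antagonist of the upper follicle, and Vdr, the vitamin D receptor, were higher by 3.37 and 2.26 on the log2 scale. Hoxc13, which drives hair keratins, Foxc1 and Msx2, both follicle factors, were lower, by log2 differences of -2.55, -2.78 and -3.73. Of this list limma called 8 of 20 tested members higher and 3 lower, against 31.5% and 13.6% of all genes tested. Its median was 0.30 (-0.98 to 1.59 over the 5 other scalings), and that of all genes 0.38. Of differentiated keratinocyte genes limma called 3 of 20 tested members higher and 6 lower, with a median of -0.34 (-1.73 to 0.90 over the 5 other scalings). Among these Sbsn, a secreted protein of the upper layers, and Cdsn, corneodesmosin, were lower at -4.70 and -3.68, and Krtdap, made by differentiating keratinocytes, was higher at 4.12 with 172, 122, 324 and 11.8 RPM in tumours 1 to 4. Under quantile normalization Krtdap was not called, and under pan-epithelial scaling Hoxc13 and Foxc1 were not called, and in the deposited values Vdr and Krtdap were not called.

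Marker lists of connective tissue, vessels and blood cells summed higher in every tumour than in the cells. In such bulk RNA fewer cells of a type and less RNA per cell cannot be told apart. The 21 fibroblast genes summed to 4654 to 6203 RPM in tumours against 632 to 655 in cells, where Fbln2 alone made up 616 on average, and 6 of them had 0 reads in all vehicle libraries. Limma called 19 of 20 tested members higher, against 31.5% of all genes tested. Their median log2 difference was 6.38 (5.35 to 7.16 over the 5 other scalings, and 7.68 with members at 0 reads set at their bound). Members almost unread in the cells could be tested only through the tumours. Col1a1, the main chain of type I collagen, had 2268, 2280, 3067 and 2598 in the tumours and 0.122, 0.222 and 0.134 in the cells, and Vim, the intermediate filament of mesenchymal cells, 467, 598, 373 and 769 against 0.462, 0.602 and 0.570 in cells. For both genes each group was tight and the groups lay far apart. Pdgfra, the fibroblast receptor for platelet-derived growth factor, Postn, periostin, and Col14a1, a collagen of dermal fibroblasts, were higher by 5.89, 7.09 and 10.15 on the log2 scale.

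Most listed genes of vessels were higher as well. Cdh5, the cadherin of endothelium, had 50.8, 69.2, 67.8 and 107 RPM in the tumours and 2 reads in all in the cells, a ratio of 3773-fold (95% counting interval 1044 to 31151). Pecam1, an adhesion molecule of endothelium, had 41.1, 40.5, 37.1 and 87.0 in the tumours and 26.1, 26.8 and 25.8 in the cells, was not called at 0.86 and turned to -0.41 in the deposited values. The endothelial list summed to 336 to 569 in tumours against 83.8 to 85.9 in cells, with 7 of its 20 genes at 0 reads in all vehicle libraries, and limma called 17 of 20 tested members higher. Pericyte and smooth muscle genes summed to 1313 to 1947 in tumours against 119.8 to 121 in cells, with 13 of 14 tested members higher. Both counts are set against 31.5% higher among all genes tested. In both lists members almost unread in the cells could be tested only through the tumours. Cspg4, the proteoglycan NG2 of pericytes, had 635, 407, 820.0 and 583 in the tumours and 1.46, 1.87 and 2.11 in the cells. Pecam1 was called higher under pan-epithelial scaling, at 2.15.

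**Figure D3:**
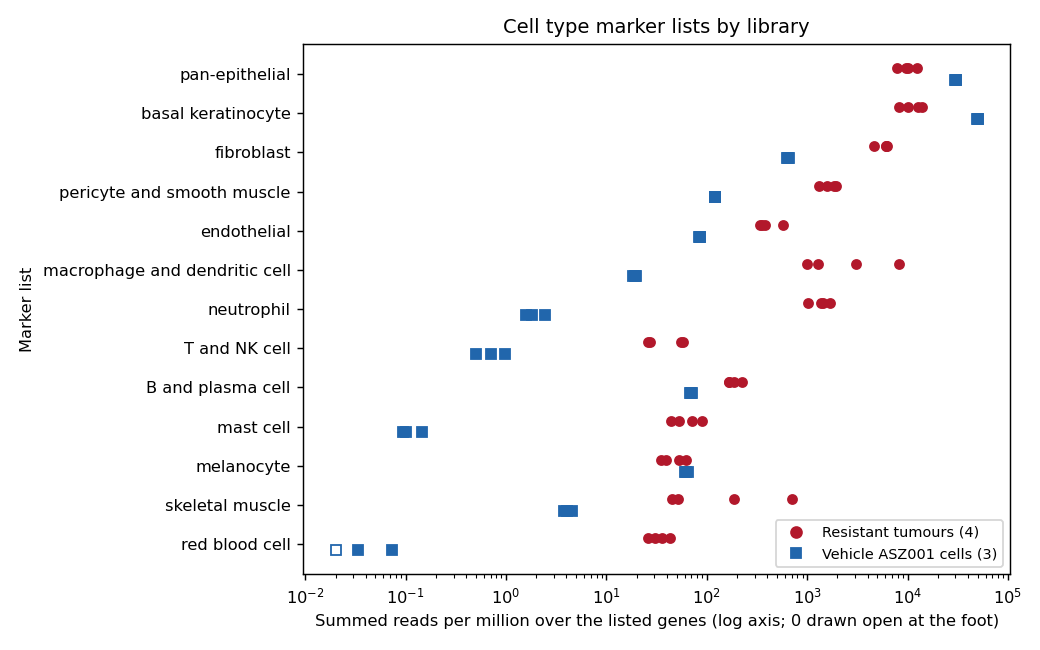
Summed RPM (log axis) of 13 cell type marker lists, with 1 point per library, 4 resistant tumours and 3 vehicle libraries. Both epithelial lists lie higher in the cells, lists of stromal, vascular and blood cells lie higher in the tumours, the melanocyte list overlaps, and macrophage and skeletal muscle sums spread most among tumours.

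Genes of myeloid cells were read in every tumour, at levels that varied between tumours. Ptprc, the CD45 antigen of all white blood cells, had 48.8, 123, 70.3 and 186 RPM in resistant tumours 1 to 4 and 1 read over the vehicle libraries, a ratio of 10969-fold (95% counting interval 1969 to 433255). Lyz2 had 327, 888, 359 and 5021 against 0 reads in cells, at least 16380-fold higher, with tumour 4 far above the other tumours. Itgam, the CD11b integrin of myeloid cells, and Csf1r, the receptor that macrophages need, had 132, 308, 178 and 557, and 42.2, 266, 62.8 and 294, in tumours 1 to 4, and both were higher in tumours 2 and 4 than in 1 and 3. Macrophage and dendritic cell genes summed to 997, 3049, 1279 and 8245 in tumours 1 to 4 and 18.3 to 19.6 in the cells. All 22 tested members were called higher, against 31.5% of all genes tested. Their median was 6.10 (4.94 to 6.67 over the 5 other scalings, and 7.47 with members at 0 reads set at their bound). Of them 9 had 0 reads in all vehicle libraries, so they could be tested only through the tumours.

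Neutrophil genes summed to 1027 to 1680 RPM in tumours against 1.58 to 2.43 in cells. All 15 tested members were called higher, against 31.5% of all genes tested. At such low sums in cells nearly all members entered the test only through the tumours, so this count was fixed largely by the filter. S100a9, a calcium-binding protein of neutrophils, had 186, 176, 260.3 and 258 in the tumours, and Lcn2, an iron-binding defence protein that keratinocytes can make too, had 221, 262, 477 and 453, each with 0 reads in the cells. Few lymphocyte genes reached the level for testing. The T and NK cell list summed to 26.0 to 58.5 in tumours against 0.507 to 0.973 in cells. Of its 21 genes 5 were tested, all of them through the tumours, and 4 were called higher. Foxp3, the factor of regulatory T cells, had 11.7, 10.3, 10.2 and 8.54 in tumours 1 to 4, a narrow range, while Cd4, a co-receptor of T cells, had 4.19, 9.94, 2.92 and 25.6, highest in tumour 4. Mast cell genes summed to 44.1, 70.5, 52.8 and 88.7 in tumours 1 to 4 against 0.0951 to 0.146 in cells. Hdc alone made up 30.5, 33.7, 35.6 and 44.4 of these sums, and Cma1 of the same list 0.668, 5.19, 1.11 and 4.50. Red blood cell genes summed to 25.9 to 43.0 in tumours against 0 to 0.0729 in cells. Alas2 alone made up 24.5 to 37.6 of this sum, and it was the only gene of the list tested. Of the 8 listed genes with counts, 4 had 0 reads in every tumour. Skeletal muscle genes summed to 44.9 to 705 in tumours against 3.74 to 4.53 in cells. Titin of muscle, Ttn, had 568, 144, 19.6 and 20.1 in tumours 1 to 4, mostly in tumour 1. Under quantile normalization Cd4 was not called.

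Among targets of SRF and MRTF, Myl9, Acta2 and Tagln of smooth muscle were higher in the tumours, and Actg1, Csrp1, Thbs1 and Wdr1 were lower. Srf itself had 44.7, 34.9, 44.5 and 56.0 RPM in the tumours and 78.4, 78.6 and 74.9 in the cells, was not called at -0.79 ± 0.15 (SE), and turned to 0.51 under pan-epithelial scaling. Mkl1 had 126, 101, 119 and 74.0 against 116, 114 and 113 in cells, was not called at -0.16 ± 0.18 (SE) and turned to 1.15 under that scaling. Mkl2 had 245, 265, 288 and 252 against 88.7, 89.8 and 92.3 in cells, higher in every tumour by 1.53 ± 0.09 (SE) on the log2 scale, adjusted p = 6.49e-04 by limma. Myocd, the coactivator of smooth muscle, had 1.21, 0.710, 1.34 and 2.38 against 0 reads in the cells and was called higher too. Over all 39 tested targets limma called 12 higher and 4 lower, with a median of 0.85 (-0.43 to 2.15 over the 5 other scalings), against 31.5% higher and 13.6% lower among all genes. Under quantile normalization Thbs1 and Myocd were not called, and under pan-epithelial scaling Actg1, Csrp1, Thbs1 and Wdr1 were not called, and in the deposited values Mkl2 and Myocd were not called. Srf and Mkl1 were called lower in the deposited values, at -2.07 and -1.44. Thbs1 was not called when any single library other than resistant tumour 2 was left out in turn, with limma's adjusted p from 0.0731 to 0.0861. Myocd was not called when vehicle library 1 or 2 or 3 was left out in turn, with limma's adjusted p from 0.0551 to 0.0555.

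The promoters of a pair of targets that moved apart show that both hold a CArG box, the element that SRF binds. The 250 bases before the start are printed from RefSeq's table for GRCm38.p6, with the CArG box in capitals, for Myl9, which was higher in the tumours, and for Actg1, which was lower. The Myl9 stretch is chr2:156775214-156775463 on the plus strand and the Actg1 stretch is chr11:120348496-120348745 on the minus strand, both read 5′ to 3′.
Myl9: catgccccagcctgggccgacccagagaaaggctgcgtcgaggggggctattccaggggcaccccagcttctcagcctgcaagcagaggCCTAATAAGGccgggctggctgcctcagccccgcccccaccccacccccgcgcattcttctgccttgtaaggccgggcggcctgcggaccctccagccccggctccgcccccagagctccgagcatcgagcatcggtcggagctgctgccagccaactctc
Actg1: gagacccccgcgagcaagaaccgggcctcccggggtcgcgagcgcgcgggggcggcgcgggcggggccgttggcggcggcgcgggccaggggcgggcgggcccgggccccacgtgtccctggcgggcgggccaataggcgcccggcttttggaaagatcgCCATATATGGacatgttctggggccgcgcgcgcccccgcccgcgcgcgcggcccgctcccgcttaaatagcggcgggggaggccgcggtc
The box starts 161 bases before the start of Myl9 and 90 bases before that of Actg1. The search covered 300 bases, 250 before to 50 after the start, for CC, then 6 bases that are each A or T, then GG. The reverse complement of any such box has the same form, so 1 search covers both strands. Of 12 targets called higher, 6 have a promoter in the table and 1 holds the box, of 4 called lower 3 have one and 1 holds it, and of 23 not called 22 have one and 6 hold it. Among all 32851 promoters of that length 1.63% hold a CArG box. Counted by gene, as the targets are, 1.81% of 27025 genes have a promoter that holds it. No promoter of the 10 tested Hedgehog targets in the table holds the GLI motif GACCACCCA on either strand, which 0.253% of all promoters hold. A match is a description of letters, not evidence of binding.

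Myl9, the light chain of smooth muscle myosin, had 60.3, 101, 126 and 158 RPM in the tumours and 0.754, 1.24 and 1.24 in the cells, a log2 difference of 6.08 ± 0.32 (SE). Acta2, smooth muscle actin, had 191, 232, 332 and 469.9 against 0.0486, 0.0951 and 0.134 in cells, and Tagln, transgelin, had 52.9, 51.7, 77.3 and 118 in the tumours and 2 reads over the vehicle libraries. All 3 were lowest in tumour 1 or 2 and highest in tumour 4, and the summed pericyte and smooth muscle genes, which include some of these targets, were higher in the tumours beside them. Their part in this was not tested. Actg1, cytoplasmic gamma actin, had 1214, 857, 963 and 887 in the tumours and 3791, 3696 and 3639 in the cells, a log2 difference of -1.93 ± 0.15 (SE). Actb, cytoplasmic beta actin, had 2185, 2089, 2221 and 2272 against 2942, 2824 and 2822 in cells, and its difference of -0.39 was not called and turned to 0.92 under pan-epithelial scaling. The other lower targets were Csrp1, a LIM protein, Thbs1, thrombospondin, and Wdr1, which helps cofilin to take actin filaments apart, with log2 differences of -2.38, -1.82 and -1.35. Under quantile normalization Thbs1 was not called, and under pan-epithelial scaling Actg1, Csrp1, Thbs1 and Wdr1 were not called. Actb was called lower in the deposited values, at -1.68. Thbs1 was not called when any single library other than resistant tumour 2 was left out in turn, with limma's adjusted p from 0.0731 to 0.0861.

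**Figure D4:**
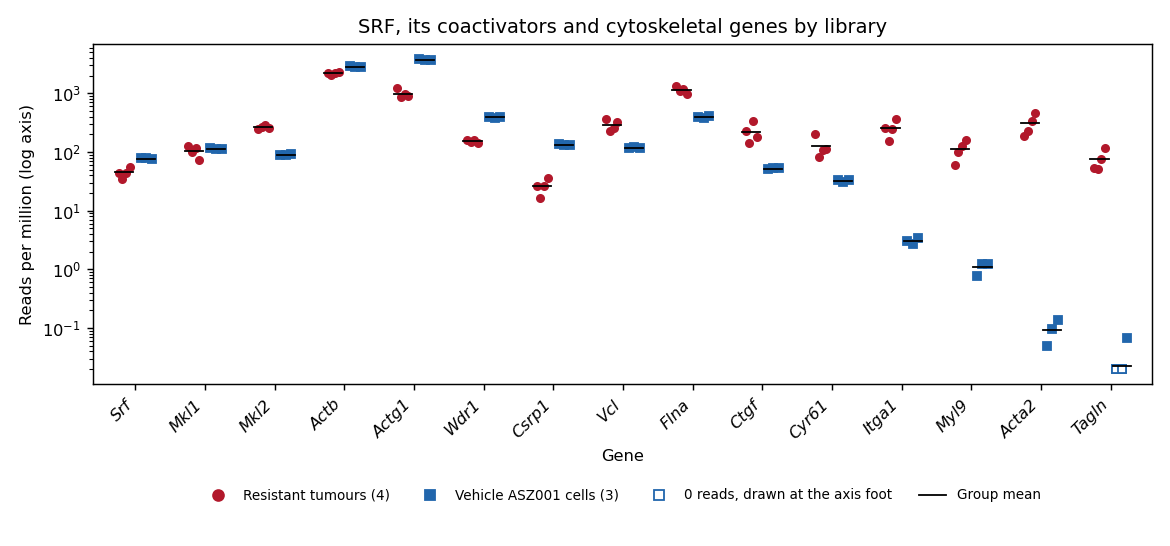
RPM (log axis) of SRF, its 2 coactivators and 12 cytoskeletal or matricellular genes, with 1 point per library, 4 resistant tumours and 3 vehicle libraries, and a bar at each group mean. Actg1, Wdr1 and Csrp1 lie higher in the cells, Srf, Mkl1 and Actb change direction with pan-epithelial scaling, and Acta2, Tagln, Myl9 and Itga1 lie far higher in the tumours.

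Other targets were higher in the tumours as well. Flna, filamin, had 1324, 1081, 1185 and 962 RPM in the tumours and 396, 386 and 407 in the cells, and Itga1, a collagen receptor, had 257, 155, 247 and 367 against 2.99, 2.69 and 3.35 in cells. Ctgf and Cyr61, matricellular proteins that SRF and YAP both drive, were higher by 2.00 ± 0.26 (SE) and 1.86 ± 0.27 (SE) on the log2 scale, and Smtn, smoothelin, by 2.29 ± 0.17 (SE). Vcl, vinculin of focal adhesions, had 370.1, 229, 252 and 324 against 118, 120.4 and 116 in cells and was not called at 1.28 ± 0.17 (SE), or -0.003 in the deposited values. Under TMM scaling Flna was not called, and in the deposited values Flna, Ctgf, Cyr61 and Smtn were not called. Vcl was called higher under pan-epithelial scaling, at 2.59. Vcl was called when resistant tumour 2 was left out, with limma's adjusted p = 0.0350.

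Immediate early genes, which SRF drives with its TCF partners, were higher in part. Egr1 had 748, 436, 375 and 274 RPM in the tumours and 19.1, 18.9 and 17.1 in the cells, Fos had 58.5, 34.9, 27.3 and 20.4 against 1.24, 2.25 and 1.41 in cells, and Egr3 had 60.2, 25.0, 71.6 and 152 against 0.632, 0.602 and 0.604 in cells. These 3 transcription factors had log2 differences of 4.50, 3.99 and 5.85, and Dusp1, a phosphatase that ends kinase signalling, 3.18. Egr1 and Fos were highest in tumour 1 and lowest in tumour 4, and Egr3 was highest in tumour 4. Junb, a partner of Fos, was lower in the tumours at -1.70, and Jun was not called at -0.40, or 0.90 under pan-epithelial scaling. Of the list limma called 6 of 14 tested members higher and 1 lower, against 31.5% and 13.6% of all genes tested. Its median was 1.32 (0.19 to 2.43 over the 5 other scalings). Under pan-epithelial scaling Junb was not called. Jun was called lower in the deposited values, at -1.69.

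Genes of YAP and TEAD went both ways, with 6 of 16 tested members higher and 4 lower and a median of 0.19 (-1.09 to 1.48 over the 5 other scalings), against 31.5% and 13.6% of all genes tested. Tead1, a DNA-binding partner of YAP, had 432, 293, 339.5 and 418 RPM in the tumours and 19.01, 17.6 and 18.7 in the cells, whereas Tead4 had 33.7, 12.9, 14.3 and 14.9 against 84.0, 81.8 and 82.9 in cells. Tead1 was thus higher in every tumour and Tead4 lower in every tumour, at log2 differences of 4.28 ± 0.14 (SE) and -2.21 ± 0.30 (SE). Lats2, the kinase that restrains YAP, was higher at 2.23. Ptpn14, a phosphatase that binds YAP, Ajuba, a LIM protein that binds Lats kinases, and Crim1 were lower at -3.14, -1.73 and -1.86. Under pan-epithelial scaling Tead4, Ajuba and Crim1 were not called, and in the deposited values Lats2 was not called.

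Of the Wnt list limma called 6 of 14 tested members higher and 2 lower, with a median of 0.70 (-0.56 to 1.96 over the 5 other scalings), against 31.5% and 13.6% of all genes tested. Wif1, a Wnt inhibitor, had 87.1, 517, 497 and 113 RPM in resistant tumours 1 to 4 and 1 read over the vehicle libraries, and Dkk3, a secreted protein of the Dickkopf family, had 121, 83.4, 129 and 206 against 3 reads. Wif1 was higher in tumours 2 and 3 than in 1 and 4. Wnt5a, a ligand, was higher by 2.32 ± 0.21 (SE) on the log2 scale. In the Notch list 4 of 14 tested members were higher and 2 lower, with a median of 0.17 (-1.11 to 1.47 over the 5 other scalings), shares close to those over all genes, 31.5% and 13.6%. Dll1, a Notch ligand, had 3.34, 4.75, 3.503 and 6.67 in the tumours and 80.9, 79.7 and 76.8 in the cells, and Heyl, a Notch target of vessel walls, had 10.8, 22.8, 26.5 and 27.1 against 0 reads. In the deposited values Wnt5a was not called.

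Of NF-kB and cytokine genes limma called 15 of 21 tested members higher, against 31.5% of all genes tested. Their median was 4.49 (3.39 to 5.57 over the 5 other scalings). Members almost unread in the cells, Il1b and Csf3 among them, could be tested only through the tumours. Il1b, a cytokine of myeloid cells, had 113, 175, 148 and 266 RPM in the tumours and 3 reads in all in the cells, and Csf3, which calls up neutrophils, had 237, 194, 105 and 44.7 against 1 read. Icam1, which holds leukocytes to a surface, had 301, 288, 312 and 268 against 0.997, 0.887 and 1.11 in cells, and Tnfaip3, a brake on NF-kB, was higher by 4.49 ± 0.17 (SE) on the log2 scale. Csf3 was highest in tumour 1 and lowest in tumour 4, and Icam1 barely varied among tumours. Of interferon response genes it called 10 of 27 tested members higher, with a median of 1.68 (0.14 to 2.68 over the 5 other scalings), against 31.5% higher among all genes tested. B2m and H2-D1 of antigen presentation and Oasl2, an interferon-induced gene, had log2 differences of 2.93, 3.85 and 4.27, and H2-D1 has near-identical relatives that could share its reads. The macrophage and neutrophil sums given above were higher in the tumours beside all these, and their part was not tested.

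Of the protease and integrin list limma called 11 of 21 tested members higher and 1 lower, with a median of 2.76 (1.51 to 4.02 over the 5 other scalings). For each list of this paragraph the shares to compare are those over all genes tested, 31.5% higher and 13.6% lower. Mmp13, a collagenase, had 2669, 1633, 1310 and 1380 RPM in the tumours and 5.54, 5.86 and 6.31 in the cells, and Mmp3, stromelysin, had 1711, 618, 752 and 398 against 11.2, 11.2 and 10.9 in cells. Mmp2, a gelatinase, and Spp1, osteopontin, were higher by 7.91 ± 0.33 (SE) and 7.91 ± 0.16 (SE) on the log2 scale. The lower member was Ctsl, a lysosomal protease, at -1.49. In the list of TGF-beta and epithelial-mesenchymal transition genes it called 11 of 21 tested members higher and 3 lower, with a median of 2.53 (1.11 to 3.51 over the 5 other scalings). The lower share, 14.3%, was near that over all genes tested. Higher members included Vim, Ltbp2, a matrix protein, Zeb2, a repressor of E-cadherin, and Fn1, fibronectin, with log2 differences of 8.996, 6.97, 5.06 and 2.59, and fibroblasts also make Vim and Fn1. Cdh2, N-cadherin, ran against the list's name: it had 9.90, 2.13, 7.36 and 11.2 in the tumours and 397, 415 and 402 in the cells, a log2 difference of -5.84 ± 0.47 (SE), and Tgfbi, a TGF-beta-induced matrix protein, was lower at -2.08. In the list of the EGF receptor family and its ligands limma called 7 of 11 tested members higher and 1 lower, with a median of 2.16 (-0.15 to 2.90 over the 5 other scalings). Egfr had 512, 437, 474 and 481 against 137, 135 and 138 in cells, Tgfa, a ligand, was higher at 2.44, and Erbb3 was lower at -1.74. Under pan-epithelial scaling Ctsl, Tgfbi and Erbb3 were not called, and in the deposited values Fn1, Egfr and Tgfa were not called. Ctsl was not called when any single library other than resistant tumour 1 was left out in turn, with limma's adjusted p from 0.0530 to 0.0929.

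Most cell cycle genes were not called, Mki67 being an exception. Mki67, the Ki-67 antigen of dividing cells, had 904, 304, 577 and 779 RPM in the tumours and 58.1, 63.2 and 67.4 in the cells, a log2 difference of 3.23 ± 0.34 (SE), adjusted p = 3.65e-04 by limma. Of the 32 listed genes, 3 were called higher and 2 lower, or 9.38% and 6.25%, against 31.5% and 13.6% of all genes tested. Their median was -0.16 (-1.44 to 1.12 over the 5 other scalings). Beside Mki67 the higher ones were Tyms, an enzyme of thymidylate synthesis, and Cenpe, a kinetochore motor, at 1.501 and 1.57, and the lower ones Aurka, a mitotic kinase, and Rrm2, of ribonucleotide reductase, at -1.95 and -1.504. Cdkn2a, which encodes 2 inhibitors of growth, had 21.2, 11.9, 14.8 and 16.4 in the tumours and 116, 113 and 114 in the cells, and Cdkn1b, the inhibitor p27, was lower too, at -2.23. Cdkn1a, the inhibitor p21 and a p53 target, was not called at 0.52, or -0.76 in the deposited values. Of Trp53 and its targets limma called 1 of 18 tested members higher and 4 lower, against 31.5% and 13.6% of all genes tested. Their median was -0.50 (-1.77 to 0.78 over the 5 other scalings). Phlda3, a p53 target that blocks Akt, was lower at -2.93, and Fas, the death receptor, higher at 4.25. Under TMM scaling Cenpe was not called, and under quantile normalization Rrm2 was not called, and under pan-epithelial scaling Aurka, Rrm2, Cdkn2a, Cdkn1b and Trp53 were not called, and in the deposited values Tyms and Cenpe were not called. Cdkn1a was called higher under pan-epithelial scaling, at 1.83. Cenpe was not called when vehicle library 1 or 3 was left out in turn, with limma's adjusted p from 0.0514 to 0.0533. Rrm2 was not called when any single library other than resistant tumour 1 and resistant tumour 3 was left out in turn, with limma's adjusted p from 0.0572 to 0.1.

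Lists of respiration and of cholesterol synthesis held many genes that were lower in the tumours, most of them not under every scaling. Of oxidative phosphorylation genes limma called 12 of 24 tested members lower, with a median of -1.41 (-2.69 to -0.11 over the 5 other scalings), and of cholesterol synthesis genes 1 of 20 tested members higher and 9 lower, with a median of -1.35 (-2.64 to -0.05 over the 5 other scalings). Both are set against 31.5% higher and 13.6% lower among all genes tested. Under all scalings 1 gene of each list was called lower. Ndufa4, a small respiratory subunit, had 58.6, 54.8, 55.1 and 32.5 RPM in the tumours and 344, 352 and 355 in the cells, lowest in tumour 4. Uqcrc1 of complex III and Cox4i1 of complex IV were lower at -2.29 and -1.74. Idi1, an enzyme of the sterol pathway, and Srebf2, its master factor, were lower at -2.55 and -1.76. Under pan-epithelial scaling Uqcrc1, Cox4i1, Idi1 and Srebf2 were not called.

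Other metabolic lists were mixed. Of hypoxia and glycolysis genes limma called 8 of 21 tested members higher and 1 lower, with a median of 0.27 (-1.02 to 1.58 over the 5 other scalings), against 31.5% and 13.6% of all genes tested. Vegfa, the vascular growth factor, had 446, 286, 333 and 494 RPM in the tumours and 75.1, 74.5 and 72.2 in the cells, Ndrg1 was higher at 2.31, and Hk1, a hexokinase, was the lower gene at -2.02. Of NRF2 targets 2 of 17 were higher and 6 lower, with a median of -0.37 (-1.66 to 0.93 over the 5 other scalings). Fth1, ferritin heavy chain, had 2176, 5772, 2919 and 2633 against 507, 476 and 479 in cells, while Prdx1, a peroxiredoxin, and Tkt, transketolase, were lower at -2.02 and -2.37. Among 22 ribosomal protein genes 2 were higher and 3 lower, with a median of -0.38 (-1.67 to 0.92 over the 5 other scalings). Rplp0 and Rps2 were lower at -2.58 and -2.12, and such genes have near-identical copies that could share their reads. Under pan-epithelial scaling Hk1, Prdx1, Tkt, Rplp0 and Rps2 were not called, and in the deposited values Vegfa, Ndrg1 and Fth1 were not called.

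**Figure D5:**
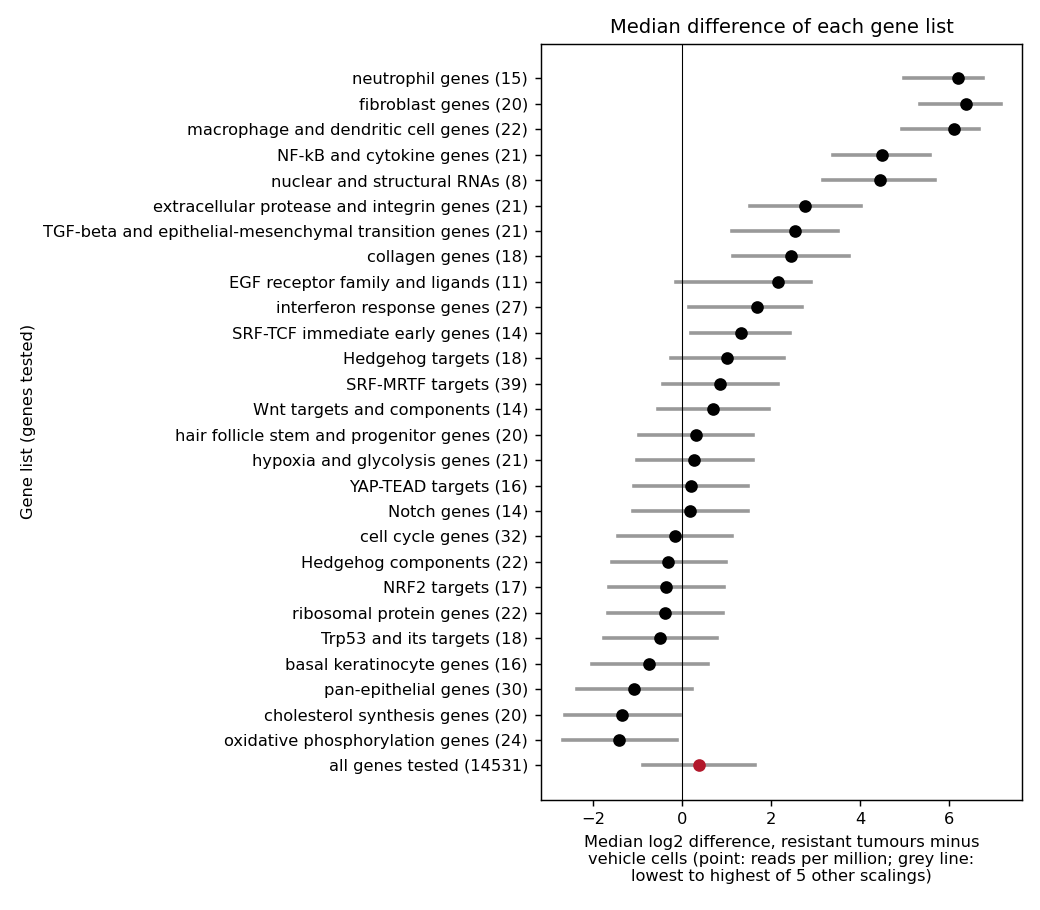
Median log2 difference, resistant tumours minus vehicle cells, of 27 gene lists and of all genes tested, with the number of genes tested in brackets; points are from RPM and grey lines span the 5 other scalings. Lists of neutrophil, fibroblast and macrophage genes lie above 0 under all scalings and oxidative phosphorylation and cholesterol genes below 0, while many lists nearer the median of all genes cross 0.

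Malat1, Kcnq1ot1 and Neat1, RNAs that stay in the nucleus, were also higher in the tumours. Malat1 had 13878, 16710, 16094 and 17500 RPM in resistant tumours 1 to 4 and 744, 866 and 864 in the vehicle libraries, and Kcnq1ot1, an antisense RNA of an imprinted locus whose reads cannot be told from Kcnq1 without strand, had 562, 616, 651 and 898 against 3.74, 3.99 and 3.89 in cells. Neat1, the RNA of paraspeckles, was higher by 4.62 ± 0.24 (SE) on the log2 scale. The groups lay far apart for all 3, and limma called 7 of 8 tested members higher, with a median of 4.45 (3.17 to 5.69 over the 5 other scalings). For this list and the next, the shares over all genes tested were 31.5% higher and 13.6% lower. Of replication-dependent histone genes, whose RNA lacks a poly(A) tail, limma called 12 of 17 tested members higher and 2 lower, with a median of 1.84 (-0.62 to 2.66 over the 5 other scalings), and 2 of them higher under all scalings. Hist1h4d, of a family of near-identical genes, had 62.5, 27.3, 46.4 and 43.6 against 0.438, 0.412 and 0.470 in cells, and was higher, while Hist1h1c was lower at -2.28. The difference varied with genomic span: its median over genes was 0.30 on the log2 scale in decile 1 of span, the shortest, 0.025 at its lowest in decile 3 and 1.23 in decile 10, the longest. With this trend removed, a step chosen after seeing the data, 6153 genes were called, 4108 higher and 2045 lower. The part of RNA selection or library type in these values was not tested. Under pan-epithelial scaling Hist1h1c was not called.

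Resistant tumours differed from each other more than the vehicle libraries did. The median SD of log2 levels over genes was 0.302 among the 4 tumours and 0.045 among the 3 vehicle libraries, and 585 genes had an SD of at least 1 among the tumours against 1 gene among the cells. By list, the median SD among tumours was 1.09 for macrophage and dendritic cell genes, 0.89 for stress and simple keratins and 0.63 for basal keratinocyte genes, and 0.20 for ribosomal protein genes. Rank correlations across genes were 0.954 to 0.971 among the tumours, 0.997 among the vehicle libraries and 0.687 to 0.734 between the groups, over genes, which are not independent of each other.

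Resistant tumours were no closer to the cells than sensitive ones beyond their spread. Over 15412 genes, the mean rank correlation with the vehicle libraries was 0.734, 0.708, 0.729 and 0.688 for resistant tumours 1 to 4 and 0.708, 0.719, 0.722 and 0.717 for sensitive tumours 1 to 4. The groups overlapped, with a mean of 0.715 in the resistant and 0.717 in the sensitive tumours, and an exact 2-sided permutation test of 4 against 4 tumours gave p = 0.943, where the smallest p it allows is 0.0286. Without sensitive tumour 4 the means were 0.715 and 0.716 and the exact p was 0.971. Without resistant tumour 2, or without resistant tumour 4, the difference, resistant minus sensitive, turned from -0.00181 to 0.000278 and 0.00715, with exact p = 1.0 and 0.343. A p of this size does not show that the groups are equally like the line.

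The differences from the line were shared with libraries left out of the comparison. Sensitive tumours were at least 2-fold above ASZ001 cells given vismodegib for 4334 of the 4576 genes called higher, 94.7%, where 40.9% of 14791 genes had such a difference, and at least 2-fold below them for 1772 of the 1969 genes called lower, 90.0%, where 19.6% did. In the opposite direction by 2-fold were 3 and 4 genes. These values come without a test. Over both directions 93.3% of called genes lay so, and 88.5% without sensitive tumour 4, the one that resembled the resistant tumours.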

How the data were processed

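RNA of 4 resistant tumours and 3 vehicle-treated ASZ001 libraries was compared. The submitters' processing notes name TopHat, DESeq and mm9, with no role; the counter and annotation were not given in the sources used here. The deposited values are normalized signal per gene, in 2 tables that the authors scaled apart. Every value was a whole multiple of what 1 read is worth in its library (within 0.01 reads, 100.0% of values), so whole reads were recovered and set to reads per 1000000 gene reads (RPM) without Rn45s, Lars2 and Mir6236, over 23988 shared gene symbols. log2(RPM + 0.5) was tested with limma 3.58.1 in R 4.3.3 against a 2-fold difference. The alternatives used edgeR 4.0.16 and DESeq2 1.42.0. On simulated data with 14519 genes, for this comparison, 64.2% of 4-fold and 89.4% of 8-fold changes were called. Of the 1.5-fold ones 0 were called, and there was 1 false call. The simulation changed 67, 67 and 66 genes by 1.5-, 4- and 8-fold, up or down at random, and no others. It therefore does not cover errors from the choice of scale. The changed genes were drawn only from those above a floor on their mean level over both groups. The shares called thus do not cover genes of lower level. Rank correlations used pandas 2.3.3 and counting intervals used scipy 1.17.1. The exact permutation test went through every arrangement of the tumours. Other scales, filters, pseudocounts, thinning to equal depth and leaving out libraries were alternatives. Named genes were the 10 furthest each way with at least 50 RPM in the higher group, up to 4 called members per list and direction with the highest levels, and a set of 45 genes. Some of these are not reported here. Members and lists were chosen with earlier results of these data known. Exomes, CCG-1423 libraries and other tables were not used.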

Additional observations from a re-analysis of the deposited data

Results flagged for a closer look

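Of 224 groups of 4 tumour values checked, 13 had 1 tumour well apart from the other 3, which chance gives in about 1 in 20 groups. Resistant tumour 4 was the one apart in 7 of them. Its values in RPM were 5021 for Lyz2, 87.0 for Pecam1, 189.6 for Tnfaip3, 220.7 for H2-D1, 32.5 for Ndufa4 and 57.9 for Tkt, the first 4 above the other tumours and the last 2 below them. Its summed integrated stress response genes were also below the others, at 1283. Resistant tumour 1 was above the others for Tead4, at 33.7, and below them for Col1a2, at 1617, and for the summed fibroblast genes, at 4654. Resistant tumour 2 was above the others for Cox4i1, at 140.3, and for the summed TGF-beta and epithelial-mesenchymal transition genes, at 8604. Resistant tumour 3 was above the others for Lef1, at 8.12.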

How the results depend on the processing

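The 6545 calls between resistant tumours and vehicle cells came to 5050 to 8582 under the other scalings, and their split moved with the scale. Genes called higher, 4576 by the test reported, numbered 2290 with quantile normalization, 7266 with pan-epithelial scaling and 2946 in the deposited values. Genes called lower, 1969, numbered 364 with pan-epithelial scaling, 5636 in the deposited values and 2965 by limma's test against no difference. The count tests on recovered reads called 7608 genes with edgeR and 6753 with DESeq2. Leaving out 1 library in turn gave 5778 to 6576 calls, 4126 to 4603 higher and 1652 to 2029 lower. The labels do not pair tumours with cell libraries by number, and deviations of same-numbered libraries correlated at 0.023, 0.009 and -0.001. With the replicate block, in which tumour 4 has no partner, 6427 genes were called, 4510 higher and 1917 lower.

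Over 178 genes named and 23 alternatives, 3911 of 4092 pairs kept direction and side of the threshold, and 99 genes did so throughout. Reversed under pan-epithelial scaling were Gli3 at 0.98, Smo at 0.62, Sufu at 0.93, Srf at 0.51, Mkl1 at 1.15, Actb at 0.92, Jun at 0.90, Epcam at 0.85 and Cdh1 at 0.25. In the deposited values Vcl came to -0.003, Pecam1 to -0.41, Trp63 to -0.96 and Cdkn1a to -0.76. Trp63 came to -0.50 with the gene span trend removed, and Mkl1 to 0.00 with the replicate block and from -0.25 to 0.00 with 1 library left out, the highest without resistant tumour 4. None of these reversed values was called. Epcam, Cdh1 and Trp63 are among the genes that set the pan-epithelial scale. In the direction reported, the 9 genes that pan-epithelial scaling reversed were called lower in the deposited values, and Vcl, Pecam1, Trp63 and Cdkn1a were called higher under pan-epithelial scaling. The cause was not tested.

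The difference in likeness to the line, resistant minus sensitive tumours, was -0.00181, ranged from -0.00812 to 0.00715 when 1 library was left out, and reversed to 0.00696 (exact permutation p = 0.371) over genes of at least 1 RPM in vehicle cells. The share of called genes with a 2-fold difference in the unused libraries was 93.3%, and 88.5% to 94.6% with 1 library left out. The median SD moved to 0.268 to 0.291 among the tumours and 0.033 to 0.037 among the vehicle libraries. Depth limits low genes: 3 reads are 0.182 RPM in the shallowest tumour and 0.101 in the shallowest vehicle library.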

Other observations

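Marker genes of less common skin cells were also read in the tumours. Of melanocyte genes limma called 3 of 4 tested members higher and 1 lower, against 31.5% and 13.6% of all genes tested. Of the 11 listed, 7 had 0 reads in all vehicle libraries. Tyr and Kit, below 1 RPM in the cells, could be tested only through the tumours. Tyr, the enzyme that begins melanin synthesis, had 12.6, 16.0, 12.2 and 15.3 RPM in resistant tumours 1 to 4 and 0.316, 0.158 and 0.436 in the vehicle libraries. Mitf, the master factor of melanocytes, went the other way, with 7.35, 18.8, 9.81 and 22.2 against 59.9, 60.8 and 63.7 in cells. Kit, a receptor of melanocytes and mast cells, had 7.04, 11.2, 7.999 and 20.7 and 0 reads, at least 117-fold higher. Hdc, the enzyme that makes histamine, had 30.5, 33.7, 35.6 and 44.4 in the tumours and 1 read over the vehicle libraries. It stands in the mast cell list, and which cells made its RNA was not tested. Of Schwann cell genes limma called 4 of 8 tested members higher and 1 lower, against 31.5% and 13.6% of all genes tested. Ngfr, a neurotrophin receptor that some follicle cells also make, had 88.3, 127, 108 and 202 against 0.656, 0.951 and 0.973 in cells, and Pmp22, a myelin protein made in other tissues too, had 53.1, 173, 94.1 and 168 against 0.778, 0.951 and 0.805 in cells. Alas2, the heme enzyme of red cells, had 37.6, 34.8, 28.7 and 24.5 in the tumours and 0 reads in the cells, at least 312-fold higher. It was the only tested gene of the red blood cell list. Under pan-epithelial scaling Mitf was not called.

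Of sebaceous gland genes limma called 5 of 10 tested members higher and 1 lower, against 31.5% and 13.6% of all genes tested. Their median log2 difference was 1.09 (-0.54 to 2.06 over the 5 other scalings). Far2, which makes wax alcohols, had 44.99, 27.5, 29.2 and 36.6 RPM in the tumours and 0.413, 0.222 and 0.268 in the cells, whereas Fasn, fatty acid synthase, had 198, 183, 271 and 151 against 549, 549 and 593 in cells. Of adipocyte genes limma called 3 of 4 tested members higher, with a median of 2.13 (-0.17 to 2.69 over the 5 other scalings), and of B and plasma cell genes 3 of 4 tested members higher, with a median of 1.64 (0.29 to 2.54 over the 5 other scalings). Of these, 0 of either list were called under all scalings. Fabp4 and Car3 of the adipocyte list and Cd22 and Cd79a of the B cell list could be tested only through the tumours. Lef1, a Wnt effector of hair shaft precursors, was lower in the tumours, with 1.46, 2.18, 8.12 and 1.29 against 19.1, 19.01 and 19.8, and of the hair shaft and inner root sheath list limma called 2 of 3 tested members lower. Of collagen genes it called 11 of 18 tested members higher and 2 lower, with a median of 2.44 (1.15 to 3.74 over the 5 other scalings). Col7a1, which anchors the basement membrane to the dermis, was one of the lower collagens, with 239, 81.9, 241 and 121 in the tumours and 752, 792 and 846 in the cells, and Col17a1 was the other. Under pan-epithelial scaling Fasn, Lef1 and Col7a1 were not called. Fasn was not called when any single library other than resistant tumour 1, resistant tumour 3 and resistant tumour 4 was left out in turn, with limma's adjusted p from 0.0548 to 0.0777.

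Integrated stress response genes were mixed, with 2 of 20 tested members higher and 3 lower, against 31.5% and 13.6% of all genes tested. Their median was -0.39 (-1.66 to 0.91 over the 5 other scalings). Stc2, a secreted protein of this response, had 55.4, 3.55, 36.0 and 25.2 RPM in the tumours and 0.219, 0.190 and 0.101 in the cells, and Nupr1, a stress-induced nuclear protein, had 60.1, 25.5, 55.8 and 33.9 against 5.13, 4.59 and 4.80 in cells. Asns, asparagine synthetase, was lower in every tumour, with 81.5, 44.6, 62.5 and 59.8 against 229, 212 and 209. Of cyclin-dependent kinase inhibitors and Myc genes limma called 1 of 10 tested members higher and 3 lower, with a median of -0.41 (-1.66 to 0.85 over the 5 other scalings). Under quantile normalization Stc2 was not called, and under pan-epithelial scaling Asns was not called.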
